A study of Mus musculus with 19 samples.

Results

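Acetylcholine is made, loaded, cleared and recycled by a small set of gene products, and 9 genes of that set were followed here among the 26221 rows of the authors' normalized table. They were taken by symbol: Chat, Slc18a3, Slc10a4, Slc5a7, Slc44a1, Slc44a2, Slc44a4, Ache and Bche. Each symbol had 1 row, and each row was a rescaled row of the raw count table on which the tests below were run. Chat is the gene on which the cells were sorted, and Slc18a3 lies inside the Chat locus, so neither is independent of the sort.

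The series is bulk RNA sequencing of nasal epithelial cells from naive ChAT(BAC)-eGFP mice, which carry the transgene Tg(RP23-268L19-EGFP)2Mik/J on the B6.Cg background; age and sex are not in the labels used here. Tissue was dissociated in a dispase step followed by papain, propidium iodide served to gate out dead cells, and CD45-negative EpCAM-positive cells were sorted into 3 groups. The eGFP-positive cells, called brush cells in the labels, were split by forward and side scatter into a low gate (FSClow, 9 libraries) and a high gate (FSChi, 5 libraries), and eGFP-negative cells made the third group (EpCAM, 5 libraries). All 3 groups carry the transgene, an artificial chromosome with Chat locus sequence that drives eGFP, and reads from copies of Chat or Slc18a3 in that transgene could not be told from reads of the native genes. Whether replicate libraries are separate animals is not given in the labels, and p-values therefore reflect only the spread between these libraries, which may be technical.

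In a cholinergic neuron, choline acetyltransferase (Chat) joins choline to an acetyl group from acetyl-CoA, and the vesicular transporter encoded by Slc18a3 packs the product into vesicles. Acetylcholinesterase (Ache) splits the released transmitter, and the high-affinity transporter encoded by Slc5a7 takes the choline back up. Choline-transporter-like proteins of the Slc44 family and butyrylcholinesterase (Bche) are found in many tissues outside neurons, and brush or tuft cells are known as epithelial cells that express Chat.

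Read totals ran from 2151281 to 5439263 in FSClow, from 1348428 to 7477695 in FSChi and from 4137303 to 6487644 in EpCAM. Levels are given as CPM, read counts relative to the library total after scaling between libraries, and as TPM, which also corrects for transcript length. The summed CPM of 9 tuft and brush cell markers, none without reads in any group, was 5593 to 9900 in FSClow, 4641 to 8402 in FSChi and 4.87 to 23.8 in EpCAM. Marker sums of olfactory neurons, basal cells and secretory cells were lowest in FSClow, and FSChi libraries spread widely, while glial and stromal marker sums overlapped between all 3 groups: 7 olfactory neuron markers summed to 64.9 to 274 in FSClow, 238 to 3847 in FSChi and 2962 to 5453 in EpCAM. The sums for 4 basal cell markers were 1.08 to 109, 23.9 to 1708 and 1203 to 3632, and for 4 secretory cell markers 13.9 to 171, 349 to 11623 and 3346 to 13980. Of the 7 olfactory neuron markers, Gng13 went the other way. Its log2 fold change against EpCAM was 0.53 in FSClow and 2.13 in FSChi (edgeR adjusted p = 0.217 and 0.000248). The other markers of that list had negative values in both comparisons, and the share of Gng13 in the sums was not separated. For 14 of the 19 libraries, the count column and the single-library file of the same label were each other's best match. The other 5 were FSChi replicates 3, 4 and 5 and EpCAM replicates 1 and 2. FSChi replicate 5 matched its own file best (r = 0.735), but the column of FSChi replicate 4 matched that file more closely (r = 0.827). The rest of these columns matched another file of the same group best. TPM values in those groups may therefore belong to another replicate. The FSChi replicate 3 file was nearly empty and its TPM values were left out of all levels.

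Chat stood at 448 to 587 CPM in FSClow, with a median of 564. FSChi replicates 1 to 5 held 183, 291, 334, 266 and 433 CPM, and EpCAM replicates 1 to 5 held 2.36, 3.09, 2.43, 2.65 and 0.151 CPM. On CPM the 3 groups did not overlap: every FSClow library lay above every FSChi library, and both lay above EpCAM. The 2 gates did overlap on the other scales. On the authors' normalized values, FSChi replicate 5 at 1415 lay above FSClow replicates 1 and 2 at 1286 and 1281. By TPM, FSClow began at 115 and FSChi reached 128. The log2 fold change against EpCAM was 8.0 ± 0.42 (SE) in FSClow and 7.15 ± 0.41 in FSChi (edgeR adjusted p = 5.4e-13 and 5.03e-12), which describes the sort on eGFP and is no separate finding. In these bulk samples, fewer cells of a type and less RNA per cell cannot be told apart.

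Slc18a3, which encodes the vesicular acetylcholine transporter, was read in all 14 eGFP-positive libraries and in no EpCAM library. It ranged from 33.2 to 127 CPM in FSClow, with a median of 63.5, and FSChi replicates 1 to 5 held 10.6, 45.0, 39.2, 38.8 and 91.8 CPM. The 2 scatter gates overlapped over most of this range. With 1884 reads in FSClow, 860 in FSChi and 0 in EpCAM, the gene was at least 620-fold higher in FSClow and at least 376-fold higher in FSChi, taking a floor of 3 reads over the EpCAM group (floors cover counting error only). Slc18a3 sits at chromosome 14, 32462437 to 32464850, within the interval of Chat, 32408203 to 32465909 (GRCm38.p6, the mm10 build, as are all positions here). Counting is not stated to use strand, and both genes lie on the minus strand, so assignment between them rests on exons alone.

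The sequences upstream of the start sites are shown here for the members whose levels the results turn on: the pair that was read together (Chat and Slc18a3), the choline transporter that was nearly unread beside them (Slc5a7), and the 2 Slc44 genes that moved apart (Slc44a2 and Slc44a4). Windows reach up to 250 bases upstream of the start in RefSeq's GRCm38.p6 annotation and leave out bases in the gene's own annotated exons. Of the 9 members, 8 had a window of usable length. Capitals mark matches, on either strand, to 4 motifs: the octamer ATGCAAAT, bound by POU-domain factors such as Pou2f3, the GC box GGGCGG, the TATA box TATAAA and the E-box CACGTG.
Chat, minus strand, chr14:32465990-32466159: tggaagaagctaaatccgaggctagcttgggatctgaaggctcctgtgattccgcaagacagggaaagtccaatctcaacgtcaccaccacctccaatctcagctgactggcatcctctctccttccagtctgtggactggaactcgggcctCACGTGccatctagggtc
Slc18a3, minus strand, chr14:32464851-32465100: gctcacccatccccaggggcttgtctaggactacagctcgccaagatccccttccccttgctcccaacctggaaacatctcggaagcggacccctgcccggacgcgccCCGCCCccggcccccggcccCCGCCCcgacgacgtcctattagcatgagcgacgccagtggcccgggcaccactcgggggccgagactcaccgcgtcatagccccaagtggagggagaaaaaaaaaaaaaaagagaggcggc
Slc5a7, minus strand, chr17:54299035-54299284: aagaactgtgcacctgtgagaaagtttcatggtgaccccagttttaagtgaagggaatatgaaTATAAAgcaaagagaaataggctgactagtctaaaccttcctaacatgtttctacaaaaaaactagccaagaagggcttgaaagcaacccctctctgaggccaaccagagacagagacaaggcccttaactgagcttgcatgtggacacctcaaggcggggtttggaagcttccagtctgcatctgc
Slc44a2, plus strand, chr9:21320469-21320697: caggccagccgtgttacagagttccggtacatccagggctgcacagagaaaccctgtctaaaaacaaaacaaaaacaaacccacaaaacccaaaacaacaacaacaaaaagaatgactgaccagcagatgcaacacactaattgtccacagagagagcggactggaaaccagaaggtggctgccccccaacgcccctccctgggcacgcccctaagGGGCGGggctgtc
Slc44a4, plus strand, chr17:34914216-34914465: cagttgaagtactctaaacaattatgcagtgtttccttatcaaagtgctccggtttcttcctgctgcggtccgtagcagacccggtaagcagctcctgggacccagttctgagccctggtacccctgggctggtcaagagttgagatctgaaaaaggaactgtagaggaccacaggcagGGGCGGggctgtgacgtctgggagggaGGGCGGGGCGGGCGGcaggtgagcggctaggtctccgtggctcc
The Chat window held 1 E-box, a motif present in 3.38% of all promoter windows of its length. The Slc18a3 window held 2 GC boxes and the Slc44a4 window 4, of which the last 3 overlap, against 32.7% of windows of that length with any. The Slc44a2 window held 1 GC box (29.7% of windows of its length), and a window at a second Slc44a2 start, at chromosome 9, 21337578 to 21337827, held none of the 4 motifs. Slc5a7 had 1 TATA box (12.4% of windows). None of the 10 member windows held the octamer, which is in 1.6% of windows of 250 bases. The Slc18a3 and Slc44a2 windows overlap annotated exons of Gm2990 and Gm39302. The Slc44a4 window ends at 34914465, while the interval of the gene begins at 34914224. Most of that window therefore lies inside the gene, ahead of a later start. A match or its absence describes letters in these windows only.

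**Figure D1:**
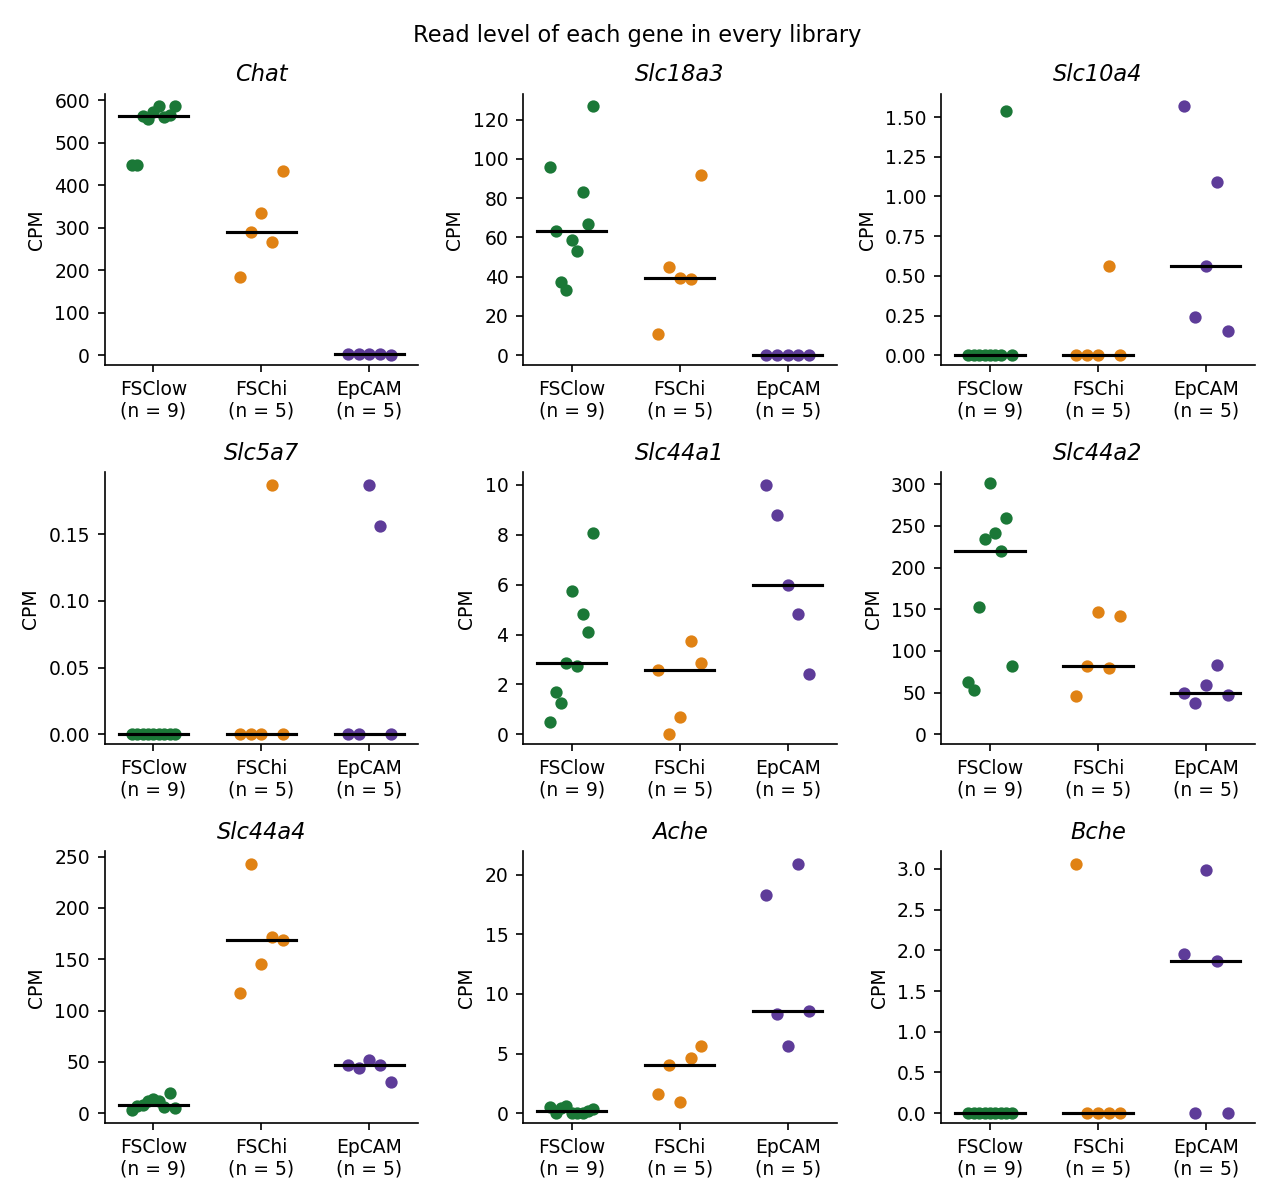
CPM of each of the 9 genes (y axis, linear, a separate scale for each panel) in every library of FSClow, FSChi and EpCAM (x axis); each point is 1 library and the line is the group median. Chat separates all 3 groups, Slc44a4 is highest in FSChi at 117 to 243 CPM, and Ache is highest in EpCAM at 5.62 to 20.9 CPM.

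The balance of the genes for packaging and synthesis was compared as the log2 ratio of Slc18a3 to Chat reads in each library, which needs no scaling between libraries. The ratio was -3.09 ± 0.66 (SD, n = 9) in FSClow and -2.98 ± 0.70 (SD, n = 5) in FSChi. The difference of 0.11 was within the spread of libraries (two-sided exact permutation p = 0.77, adjusted p = 0.78 over 11 ratio tests). Its sign was the same in 19 of 23 alternative settings, so its direction was not settled.

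Slc10a4 (chromosome 5, 73006904 to 73012955), an orphan vesicular carrier of the bile acid transporter family found at cholinergic synapses, was close to the counting limit. FSClow replicate 8 held 9 reads (1.54 CPM) and the other 8 FSClow libraries none, and FSChi replicate 4 held 3 reads (0.560 CPM) and the other 4 none. EpCAM replicates 1 to 5 held 1.57, 0.238, 0.561, 1.09 and 0.151 CPM, 20 reads in all. The gene was therefore read in every eGFP-negative library but in 2 of the 14 eGFP-positive ones, and it did not pass the filter for testing. Summed reads put EpCAM above FSClow by 2.25-fold and above FSChi by 5.08-fold, the latter with a 95% counting interval of 1.51 to 26.7 that leaves out the spread between libraries. Fitted without the filter, neither difference passed (edgeR adjusted p = 0.249 and 0.28).

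Slc5a7 (chromosome 17, 54273590 to 54299038), the transporter that returns choline to cholinergic nerve endings, was essentially unread. It had 0 reads in FSClow, 1 in FSChi (replicate 4, 0.187 CPM) and 2 in EpCAM (replicates 3 and 4, 0.187 and 0.156 CPM). No read in 9 FSClow libraries allows a level of up to 0.107 CPM, at a total of 27879701 reads in that group. No group was distinguishable from another at this depth, and the 14 eGFP-positive libraries, each at 183 CPM of Chat or more, held 1 read of this gene together.

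Of the choline-transporter-like genes, none of which the sort used, Slc44a4 differed between the 2 scatter gates, and Slc44a2 and Slc44a1 did not pass that test. Slc44a4 (chromosome 17, 34914224 to 34930436), whose human protein has been described as a carrier of a thiamine ester in the colon, was low in FSClow, at 2.97 to 19.4 CPM with a median of 7.97. FSChi replicates 1 to 5 held 117, 243, 145, 172 and 169 CPM, and EpCAM replicates 1 to 5 held 46.9, 44.2, 52.0, 46.9 and 30.7 CPM. The 3 groups did not overlap, with EpCAM lying between the 2 eGFP-positive gates. Slc44a4 was higher in FSChi than in FSClow, with a log2 difference of 4.08 ± 0.29 (SE, edgeR adjusted p = 8.49e-10), higher in FSChi than in EpCAM, by 1.94 ± 0.33 (adjusted p = 9.78e-05), and lower in FSClow than in EpCAM, at -2.14 ± 0.28 (adjusted p = 1.05e-06). FSChi replicate 2 had olfactory neuron and basal marker sums of 238 and 69.9 CPM, inside the FSClow range, and held the highest Slc44a4 level. Its secretory and sustentacular cell marker sums of 390 and 392 CPM were above the FSClow ranges, and the part of other cells in the result was not tested. The difference between FSChi and EpCAM lost its call on TPM values with the nearly empty file kept in (adjusted p = 0.091 and 0.257 with pseudocounts of 1 and 0.1) and kept it without that file at a pseudocount of 1, the only one run without it.

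Slc44a2 (chromosome 9, 21320719 to 21355028), a broadly expressed choline-transporter-like gene whose protein has been described as a mitochondrial choline carrier, was the most read of the 3 in FSClow. It ranged from 52.9 to 301 CPM there, with a median of 220, and FSChi replicates 1 to 5 held 45.4, 82.0, 147, 79.9 and 142 CPM. EpCAM replicates 1 to 5 held 49.1, 36.8, 59.5, 82.7 and 47.0 CPM. The groups overlapped, since FSClow replicates 1, 2 and 9 lay at 62.5, 52.9 and 82.0 CPM, while the other 6 FSClow libraries were above every FSChi and EpCAM library. Replicates 1, 2 and 9 also had the highest olfactory neuron (274, 195 and 208 CPM) and sustentacular (261, 188 and 189 CPM) marker sums of FSClow. The part of this in the result was not tested. Slc44a2 was higher in FSClow than in EpCAM by 1.70 ± 0.40 (SE, edgeR adjusted p = 0.00119), and this call ended on TPM values with the nearly empty file kept in (adjusted p = 0.207 and 0.541). FSChi stood 0.85 ± 0.42 above EpCAM (adjusted p = 0.147) and -0.84 ± 0.38 from FSClow (adjusted p = 0.111), and neither passed the test. The latter passed without FSClow replicate 2 (-0.95, adjusted p = 0.0468).

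Read against each other within libraries, the 2 genes changed places. Slc44a2 had more reads than Slc44a4 in 9 of 9 FSClow libraries, in 4 of 5 EpCAM libraries and in 1 of 5 FSChi libraries. The order of reads also depends on transcript length: by TPM, Slc44a4 was above Slc44a2 in 4 of 5 EpCAM files. The log2 ratio of Slc44a4 to Slc44a2 reads was in FSClow -4.13 ± 0.57 (SD, n = 9), in EpCAM -0.29 ± 0.43 (SD, n = 5) and in FSChi 0.85 ± 0.70 (SD, n = 5). FSChi exceeded FSClow by 4.98 and FSClow fell below EpCAM with a difference of -3.84 (exact permutation p = 0.0005 each, the smallest this design allows, adjusted p = 0.0027). Both calls held in 23 of 23 alternatives. FSChi exceeded EpCAM by 1.14 (exact permutation p = 0.024, adjusted p = 0.037), a call that held in 14 of 23 alternatives with differences of 0.96 to 2.01. It ended on leaving out FSChi replicate 1, 2 or 4 or EpCAM replicate 1, 3, 4 or 5 (largest adjusted p over all alternatives 0.18).

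**Figure D2:**
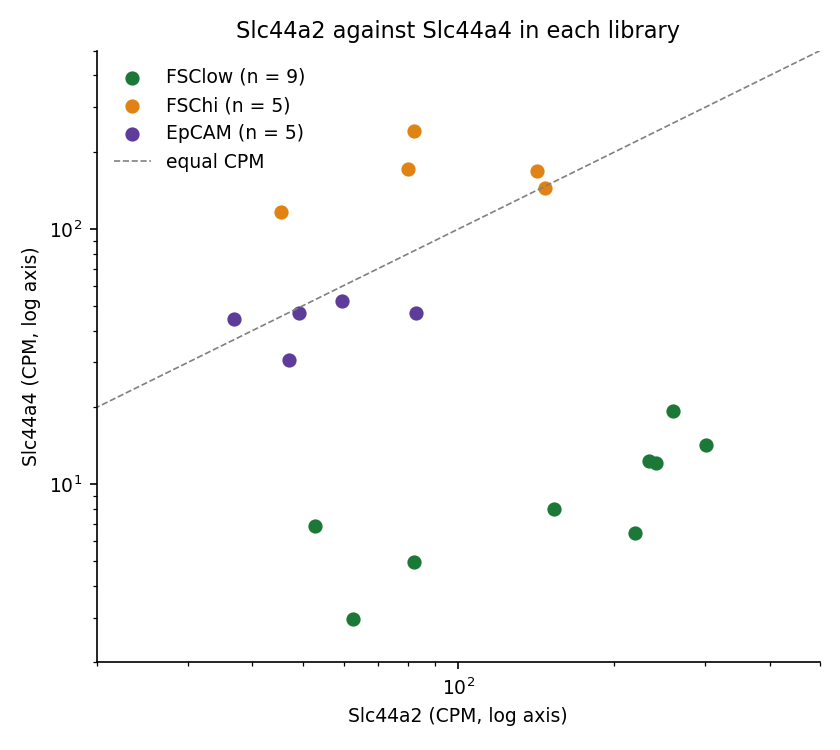
Slc44a4 CPM (y axis, log scale) against Slc44a2 CPM (x axis, log scale) in each of the 19 libraries, coloured by group, with the dashed line at equal CPM. The 9 FSClow points lie far below the line, 4 of 5 FSChi points above it, and EpCAM points close to it.

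Slc44a1 (chromosome 4, 53440387 to 53622478), a choline transporter of the plasma and mitochondrial membranes, was low in the count table in every group. It ranged from 0.496 to 8.09 CPM in FSClow, with a median of 2.87, while FSChi replicates 1 to 5 held 2.59, 0, 0.672, 3.73 and 2.84 CPM and EpCAM replicates 1 to 5 held 10, 8.79, 5.99, 4.83 and 2.41 CPM. All 3 groups overlapped. No comparison passed the test: the log2 difference was -0.83 ± 0.54 for FSClow and -1.60 ± 0.65 for FSChi against EpCAM (SE, edgeR adjusted p = 0.22 and 0.0717), and -0.77 ± 0.59 between the gates (adjusted p = 0.378). The FSChi difference passed with DESeq2 (-1.73, adjusted p = 0.0268), on the authors' normalized values (-2.05, adjusted p = 0.0311), and without FSChi replicate 4 (-2.01, adjusted p = 0.0453) or EpCAM replicate 5 (-1.81, adjusted p = 0.0485).

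The count table held 193 Slc44a1 reads over the 14 libraries whose column matched its own file, where the RSEM files held 954, a ratio of 0.202. For the other 8 members this ratio lay between 1.0 and 1.67. On the TPM scale FSClow stood at 7.57 ± 3.16 (SD, n = 9), FSChi at 5.88 ± 2.61 (SD, n = 4) and EpCAM at 8.11 ± 2.83 (SD, n = 5), values that overlap. The log2 fold changes on RSEM counts were -0.22 for FSClow and -0.34 for FSChi against EpCAM.

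Per transcript length, the leading member differed between groups. In FSClow the median TPM fell in the order Chat at 238, Slc44a2 at 89.8, Slc18a3 at 49.9, Slc44a1 at 8.16 and Slc44a4 at 5.39. Chat exceeded Slc44a2 in 9 of 9 files, whereas Slc44a2 exceeded Slc18a3 in 6 of 9 and Slc44a1 exceeded Slc44a4 in 5 of 9, so the last pair was not separated. In FSChi, Chat and Slc44a4 had medians of 99.1 and 98.6 TPM and Chat was the higher in 1 of 4 files. They were followed by Slc44a2 at 26.3, Slc18a3 at 25.5, Slc44a1 at 4.92 and Ache at 1.37 TPM, and Slc44a4 exceeded Slc44a2 in 4 of 4 files. In EpCAM, Slc44a4 led at 30.1, before Slc44a2 at 19.8, Slc44a1 at 8.21, Ache at 4.53, Bche at 0.690 and Chat at 0.590 TPM, with the first pair in that order in 4 of 5 files. Of the summed TPM of the 3 Slc44 members, Slc44a2 made up a median of 84.3% in FSClow, 17.1% in FSChi and 34.4% in EpCAM, and Slc44a4 made up 7.87%, 77.8% and 49.6%.

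**Figure D3:**
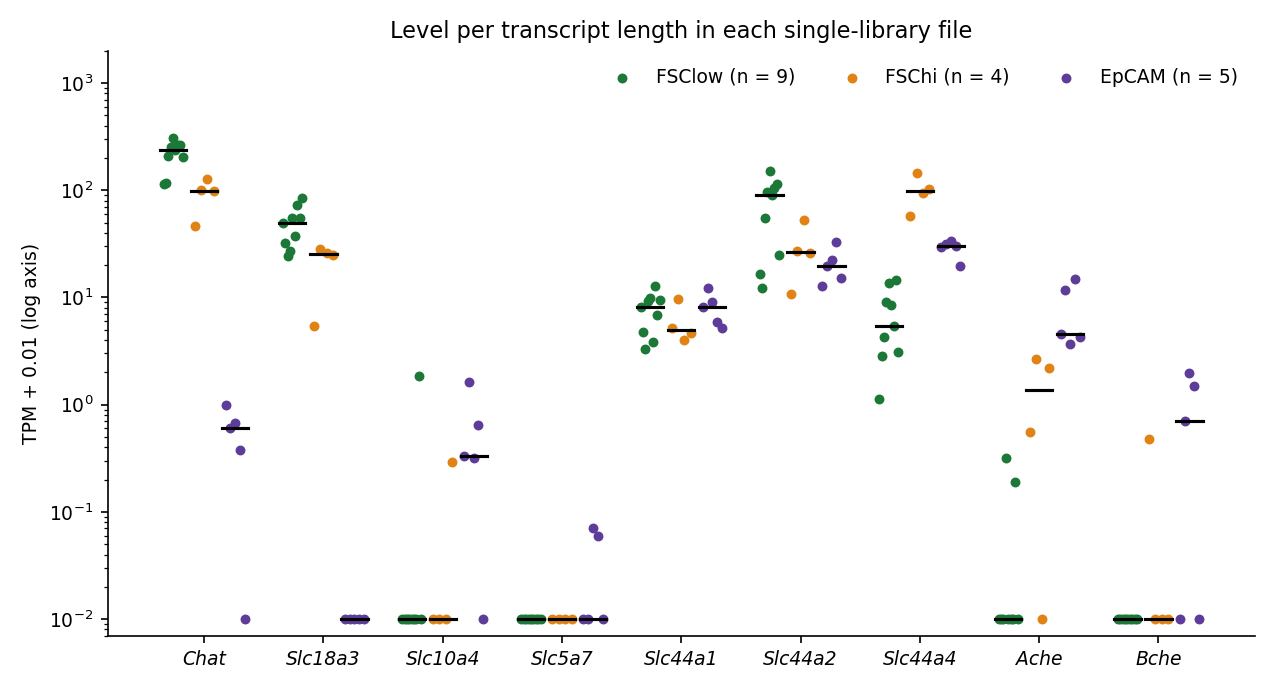
TPM plus 0.01 (y axis, log scale) of the 9 genes (x axis) in the single-library files of FSClow (9), FSChi (4) and EpCAM (5); each point is 1 file, the line is the group median, and points at the bottom are listed at 0. Chat leads in FSClow at a median of 238 TPM, and Slc44a4 leads in EpCAM at 30.1 TPM.

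The genes for breakdown were read more in eGFP-negative cells than in FSClow. Ache (chromosome 5, 137288247 to 137294466), which encodes the main esterase of cholinergic synapses, was nearly unread in FSClow, with 6 reads in 5 of 9 libraries and no library above 0.573 CPM. FSChi replicates 1 to 5 held 1.65, 4.02, 0.941, 4.67 and 5.67 CPM (60 reads) and EpCAM replicates 1 to 5 held 18.3, 8.32, 5.62, 20.9 and 8.59 CPM (349 reads). FSClow lay below both other groups without overlap, and FSChi replicate 5 lay just above EpCAM replicate 3. Ache was lower in FSClow than in EpCAM, at -5.65 ± 0.61 (SE, edgeR adjusted p = 4.97e-08), lower in FSChi than in EpCAM, at -1.90 ± 0.57 (adjusted p = 0.0169), and higher in FSChi than in FSClow by 3.75 ± 0.65 (adjusted p = 0.000134). Ache passed the filter for testing through EpCAM, the group where it was highest, so its lower calls are not independent of the filter.

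The FSChi call against EpCAM ended without EpCAM replicate 4 (adjusted p = 0.0635) and with only the libraries that matched their own file (adjusted p = 0.164), and the call between the gates ended on TPM values (adjusted p = 0.16 and 0.144, and 0.0908 without the nearly empty file). Olfactory neuron, basal and secretory marker sums had the same order of groups as Ache, and their part in the result was not tested. FSChi replicate 2, with the lowest olfactory neuron marker sum of its group, held 4.02 CPM of Ache on 5 reads.

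Bche (chromosome 3, 73635805 to 73708436), a second cholinesterase with broader substrates, had 0 reads in FSClow, which allows up to 0.107 CPM, and 38 reads in EpCAM, spread over replicates 1, 3 and 4 at 1.96, 2.99 and 1.87 CPM. It was at least 12.8-fold lower in FSClow than in EpCAM by summed reads, although 2 EpCAM libraries held none either. In FSChi all 13 reads were in replicate 1 (3.06 CPM), which also had the highest olfactory neuron and basal marker sums of its group (3847 and 1708 CPM), whose part in the result was not tested. Bche did not pass the filter and has no test in the fit used here. Fitted without the filter, it was called lower in FSClow than in EpCAM (edgeR adjusted p = 0.00887), and it did not pass for FSChi against EpCAM (0.658) or between the gates (0.0616).

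Counted together, 6 of the 9 members passed the filter on low counts (Slc5a7, Slc10a4 and Bche did not), and Slc18a3 passed through the eGFP-positive libraries alone. Ache passed through EpCAM, at 5.62 to 20.9 CPM beside at most 0.573 CPM in FSClow. Against EpCAM, 3 were higher (Chat, Slc18a3, Slc44a2) and 2 lower (Slc44a4, Ache) in FSClow, where 22.0% of all 13340 genes tested were higher and 23.1% lower, 45.1% in all. In FSChi, 3 were higher (Chat, Slc18a3, Slc44a4) and 1 lower (Ache) than in EpCAM, where 13.5% of all genes were higher and 12.2% lower, 25.6% in all. Between the gates, 2 were higher in FSChi (Slc44a4, Ache) and 1 lower (Chat), where 15.5% of all genes were higher and 9.30% lower, 24.8% in all. Chat and Slc18a3 were set by the sort, and nothing is read from their calls against EpCAM. Without them, 4 members were tested: 1 was higher and 2 lower in FSClow, 1 was higher and 1 lower in FSChi against EpCAM, and 2 were higher and 0 lower in FSChi than in FSClow. The median log2 fold change of these 4 was -1.49, -0.37 and 1.49 in the 3 comparisons, beside 0.05, -0.02 and -0.01 over all genes. Relative log expression scaling moved the medians over all genes to -0.14, -0.14 and 0.06, and the share of higher genes among those called from 48.7% to 38.2% in FSClow and from 52.5% to 42.8% in FSChi against EpCAM. The 2 comparisons against EpCAM share their EpCAM libraries.

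Chat itself was lower in FSChi than in FSClow, at -0.85 ± 0.28 (SE, edgeR adjusted p = 0.0277), with no overlap between the gates on CPM. On the authors' normalized values and on TPM the gates overlapped. The call ended without FSClow replicate 5 (adjusted p = 0.0534), without FSChi replicate 1 (0.0951) or 4 (0.0744), on the authors' normalized values (0.0843), on TPM values with a pseudocount of 0.1 (0.109) and with only the libraries that matched their own file (0.082). Slc18a3 stood at -0.62 ± 0.38 between the gates (adjusted p = 0.26). It passed on RSEM counts with the nearly empty file kept in (-1.08, adjusted p = 0.0404), but not on RSEM counts without that file. On TPM values with a pseudocount of 1 it passed with the file (-2.12, adjusted p = 0.0342) and without it (-1.27, adjusted p = 0.0348). The FSChi libraries with the lowest Chat levels, replicates 1 and 4, had the highest olfactory neuron marker sums of that group (3847 and 3175 CPM). Replicates 2, 3 and 5, with sums of 238, 1474 and 1946 CPM, held 291, 334 and 433 CPM of Chat. Replicate 5, with the highest Chat level, also had the highest secretory marker sum (11623 CPM). The part of other cells in the difference was not tested.

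**Figure D4:**
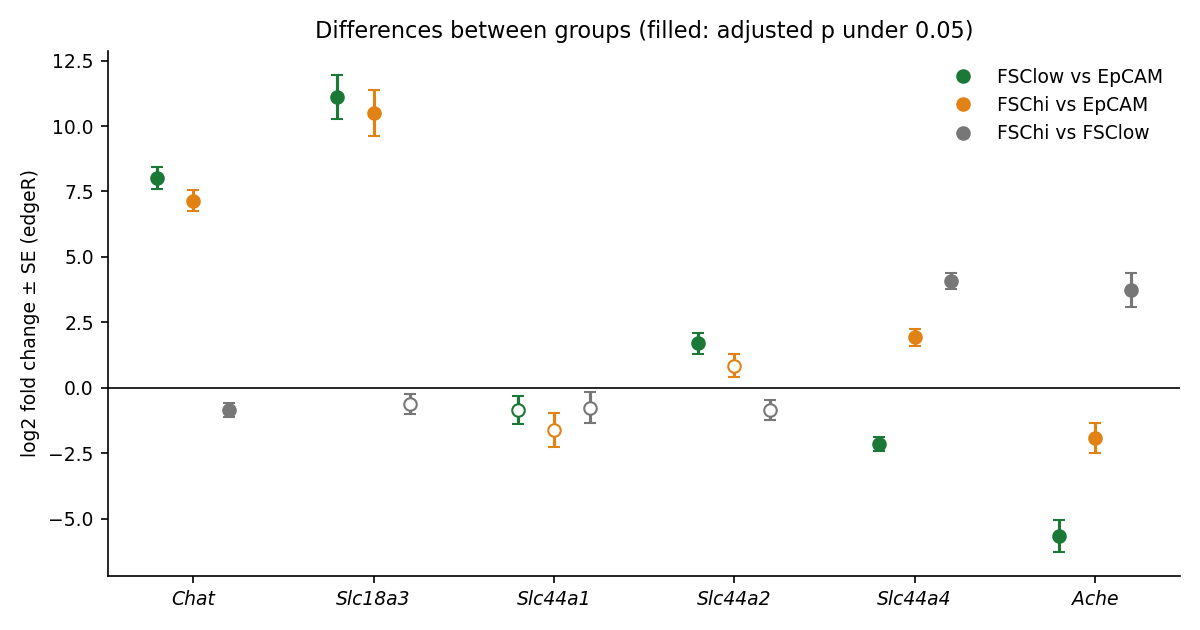
Log2 fold change from edgeR (y axis) of the 6 genes that passed the filter (x axis) in the 3 comparisons, with bars of 1 SE; filled points have an adjusted p under 0.05. Slc44a4 lies below 0 for FSClow and above 0 for FSChi against EpCAM, and Ache lies below 0 in both.

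Over the 19 libraries, the genes whose log2 CPM followed each member most closely among 13340 were ranked by Pearson correlation, a description in which all points share the same 3 groups. Chat was followed most closely by Spib (r = 0.992), Vav1 and Ano7, and Slc18a3 by Chat (r = 0.975), Spib and Alox5. Slc44a2 was closest to Dis3l (r = 0.942), Mta2 and Ivns1abp, and Slc44a4 to Epb41l1 (r = 0.964), Krt19 and Tnfaip8. Ache was closest to Ankef1 (r = 0.976), Zfp618 and Gdap1, and Slc44a1 to Slc35e3 (r = 0.880), Maoa and Ankrd40.

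Other genes of the pathway were read from lists of 56, of which 29 passed the filter. In FSClow against EpCAM, 9 were higher and 4 lower, with a median log2 fold change of 0.01. In FSChi 9 were higher and 2 lower (median 0.21), and between the gates 3 were higher and 6 lower in FSChi (median -0.14). The corresponding shares of all genes tested are the 45.1%, 25.6% and 24.8% given above, and these lists were chosen with earlier results of these data known.

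Among 7 other choline and organic cation transporters, 3 passed the filter and 2 of them were higher in both gates than in EpCAM. Over all genes tested, 22.0% were higher in FSClow and 13.5% in FSChi. Flvcr2, a carrier for which choline transport has been described, ranged from 25.9 to 78.9 CPM in FSClow, from 20.2 to 52.1 in FSChi and from 0.475 to 2.26 in EpCAM, with log2 fold changes of 5.26 and 4.55 (edgeR adjusted p = 3.16e-10 and 1.11e-08). Flvcr2 passed the filter through the eGFP-positive libraries, where it was highest. Slc44a3, a further choline-transporter-like gene, stood at 222 ± 51.5 CPM (SD, n = 9), 120 ± 53.0 (SD, n = 5) and 47.5 ± 13.8 (SD, n = 5) in the same groups, with log2 fold changes of 2.22 and 1.34 against EpCAM (adjusted p = 3.37e-07 and 0.00115). It was lower in FSChi than in FSClow, at -0.88 (adjusted p = 0.0128). The call for FSChi against EpCAM ended with only the libraries that matched their own file (0.68, adjusted p = 0.227) and on TPM values with the nearly empty file kept in (0.00 with a pseudocount of 1). The call between the gates ended on RSEM counts (adjusted p = 0.0622) and on TPM values (0.0817 and 0.134), also without the nearly empty file (0.0715 and 0.055). The relative Flvcr1 did not pass in any comparison, at 0.91 in FSClow and 0.05 in FSChi against EpCAM. The family member Slc44a5 did not pass the filter.

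Of 11 genes for the use and release of choline, 10 passed, and 5 were higher in FSClow than in EpCAM, 4 higher in FSChi, and 5 lower in FSChi than in FSClow. The matching shares over all genes tested were 22.0%, 13.5% and 9.30%. Chdh, which oxidises choline on the way to betaine in mitochondria, had mean levels of 272 ± 84.2 CPM in FSClow (SD, n = 9), 102 ± 45.8 in FSChi (n = 5) and 3.56 ± 0.573 in EpCAM (n = 5). Its log2 fold change was 6.25 in FSClow and 4.84 in FSChi against EpCAM and -1.41 between the gates (edgeR adjusted p = 1.38e-12, 1.3e-10 and 0.000257). The 2 gates overlapped, at 149 to 399 and 68.3 to 162 CPM, and both lay above EpCAM. Pnpla6, a phospholipase that frees glycerophosphocholine, was higher by 2.67 and 1.83 in the 2 gates than in EpCAM, and Gpcpd1, which cleaves glycerophosphocholine to choline, by 2.29 and 1.08. Pcyt1b, an enzyme of phosphatidylcholine synthesis, was higher by 1.94 and 0.64. The fifth, choline kinase gene Chka, is named after its values were seen: it was higher by 0.98 in FSClow (adjusted p = 0.0124) and stood at 0.08 in FSChi (adjusted p = 0.894), with -0.90 between the gates (adjusted p = 0.0379). In FSChi, the call of Gpcpd1 against EpCAM (adjusted p = 0.0275) ended in 12 of 33 alternatives, for example without FSChi replicate 3 (0.81, adjusted p = 0.114). That of Pcyt1b (adjusted p = 0.0443) ended in 29 of 33, among them relative log expression scaling (0.105), upper-quartile scaling (0.0616), DESeq2 (0.0882), RSEM counts (0.158), the authors' normalized values (0.165) and leaving out FSChi replicate 4 (0.174).

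Of 7 genes that supply acetyl-CoA, all passed the filter and 5 did not pass the test in FSClow against EpCAM. Over all genes tested, 45.1% were called in that comparison. Acly, which makes cytosolic acetyl-CoA from citrate, was higher in FSClow by 1.26 (edgeR adjusted p = 0.00974) and in FSChi by 1.18 (adjusted p = 0.042). The FSClow call ended in 5 of 33 alternatives, among them only the libraries that matched their own file (1.16, adjusted p = 0.0832) and the authors' normalized values (0.97, adjusted p = 0.0534). It also ended on TPM values with the nearly empty file kept in (adjusted p = 0.149 and 0.406). The FSChi call ended in 21 of 33, for example without FSChi replicate 2 (1.01, adjusted p = 0.102). Pdha1, a subunit of pyruvate dehydrogenase, was lower in FSClow, at -0.96 (adjusted p = 0.0444), a call that ended without EpCAM replicate 5 (-0.92, adjusted p = 0.0846) among others. Acss2 and Slc25a1, an acetyl-CoA synthetase and the mitochondrial citrate carrier, did not pass in any comparison.

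Receptor genes were sparse: 4 of 16 nicotinic subunits and 1 of 5 muscarinic receptors passed the filter. Chrna1, the muscle-type alpha subunit, had a median of 5.46 CPM in FSClow, 4.0 in FSChi and 0.196 in EpCAM, and was higher by 4.47 and 3.91 in the 2 gates (edgeR adjusted p = 0.000147 and 0.00253). It passed the filter through the eGFP-positive libraries, where it was highest. Chrnb2, a subunit of neuronal receptors, had medians of 0, 1.12 and 6.18 CPM and was lower in FSClow, at -4.08 (adjusted p = 6.01e-05). In FSChi it was lower at -2.04 (adjusted p = 0.0493), and this ended without FSChi replicate 5 (-1.93, adjusted p = 0.104) among others. Chrna10, a subunit of the receptors of cochlear hair cells, had a median of 4.30 CPM in FSChi with 1 library at 73.7 CPM. Its differences of 3.35 from EpCAM and 2.31 from FSClow (adjusted p = 0.00659 and 0.0169) ended without FSChi replicate 5, at 1.94 and 1.0 (adjusted p = 0.0849 and 0.329). Chrnb1 and the muscarinic receptor gene Chrm1 did not pass in any comparison. The 2 scales differed for Chrm1: it held 2.51 to 9.92 CPM in FSClow, but its median TPM was 0 there, 0.05 in FSChi and 0.31 in EpCAM. The cause of that gap was not tested.

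Among 8 genes for accessory proteins of nicotinic receptors, 4 passed the filter, and 2 were lower in FSClow than in EpCAM and 1 lower in FSChi. Lower genes made up 23.1% and 12.2% of all genes tested in these comparisons. Lypd6b, a small protein of the Ly6 family that binds nicotinic receptors, had medians of 0, 0.403 and 14.8 CPM and log2 fold changes of -4.95 and -3.17 (edgeR adjusted p = 1.62e-05 and 0.00856). Like Chrnb2, it passed the filter through EpCAM, where the 2 genes were highest (Lypd6b 9.74 to 23.6 CPM, Chrnb2 4.49 to 8.08 CPM). Their lower calls are therefore not independent of the filter. The FSChi call ended with only the libraries that matched their own file (-3.14, adjusted p = 0.138). Lynx1, of the same family, was lower in FSClow, at -3.07 (adjusted p = 0.000179), and higher in FSChi than in FSClow by 1.72 (adjusted p = 0.046), a call that ended without FSChi replicate 1 (1.47, adjusted p = 0.127) among others. Tmem35a, a chaperone of nicotinic receptors, was higher in FSChi than in FSClow by 2.54 (adjusted p = 0.00379), at medians of 14 and 1.37 CPM. That call ended with only the libraries that matched their own file (2.54, adjusted p = 0.0827) and on TPM values with the nearly empty file kept in (adjusted p = 0.0617 and 0.159). It held without that file at a pseudocount of 1. Ric3, another such chaperone, did not pass in any comparison. Of the 2 cholinesterase anchors, Prima1 had no read in any group and Colq had 30, 12 and 4 reads in FSClow, FSChi and EpCAM. Marker sums of other epithelial cells had the same order of groups as Chrnb2, Lypd6b and Lynx1, and their part in these differences was not tested.

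**Figure D5:**
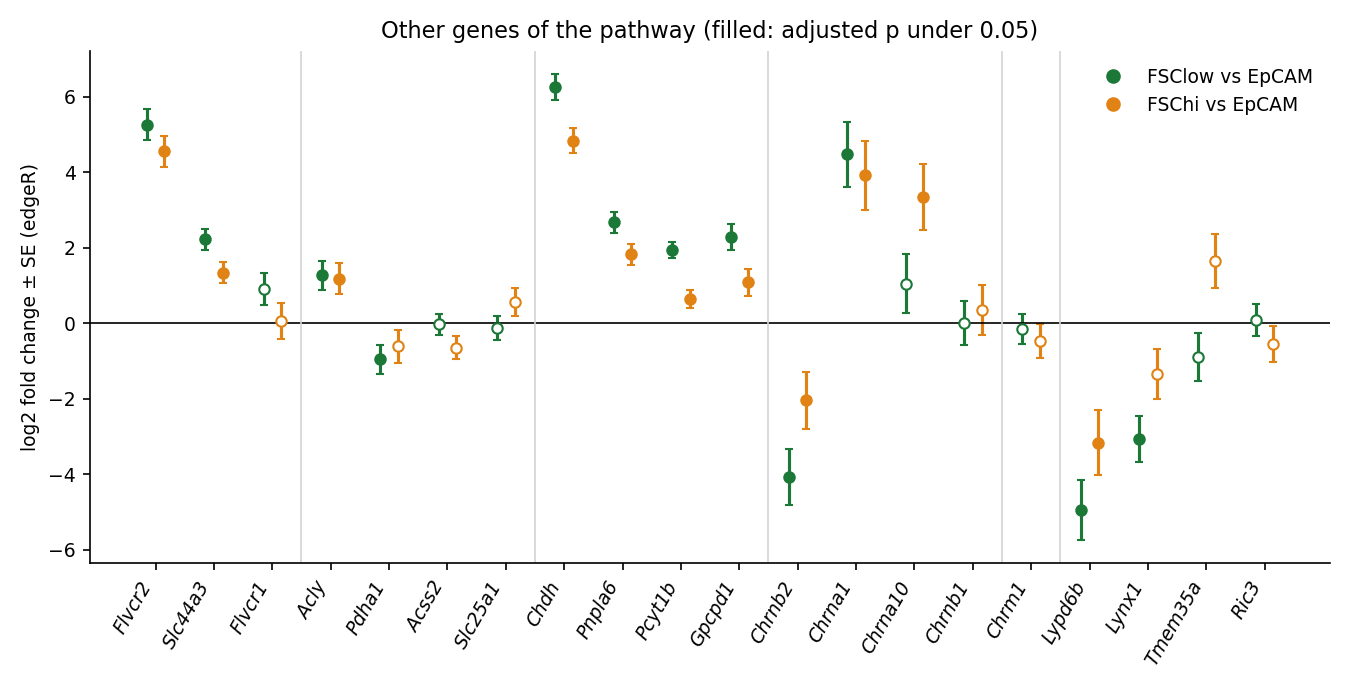
Log2 fold change from edgeR (y axis) of the named pathway genes (x axis, grey lines between lists) in FSClow and FSChi against EpCAM, with bars of 1 SE; filled points have an adjusted p under 0.05. Chdh and Flvcr2 are the highest points in both comparisons, and Lypd6b is the lowest.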

How the data were processed

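Raw counts, deposited by the authors as whole reads per gene, cover 27179 Entrez identifiers. The authors also gave a normalized table of 26221 rows, whose values are a signal: counts divided by a size factor per library (100.0% came out whole within 0.01, and all 26221 rows equalled a count row). The deposited single-library files hold, per the file headers, RSEM expected counts, rounded before use, and TPM. The submitters' processing notes name DESeq2, featureCounts, RSEM 1.2.21, Picard 1.1073, STAR 2.4.2a and the mm10 build, without roles. Symbols came from RefSeq for 25275 identifiers and from identical rows for 580, and the rest held 0.982% of counts.

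Counts of all 19 libraries were fitted together with edgeR 4.0.16 in R 4.3.3 (filterByExpr by group, TMM scaling, robust quasi-likelihood F test, group as the only term), with Benjamini-Hochberg adjustment over 13340 genes and calls at an adjusted p under 0.05. Ratios of reads within a library (0.5 added to each) were tested by exact two-sided permutation over libraries. Alternatives were other scalings and filters, DESeq2 1.42.0, RSEM counts, limma 3.58.1 on log2 TPM and on the authors' normalized values, only matching libraries, only 2 groups, and leaving out each library. No 2 libraries agreed within sampling noise.

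The members and lists were chosen with earlier results of these data known. Named are the 9 members, up to 4 genes per pathway list with the smallest p in any comparison, and the 3 genes most correlated with each tested member (log2 CPM, prior count 2). Promoter sequences are RefSeq's, GRCm38.p6, and coordinates are 1-based.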

Additional observations from a re-analysis of the deposited data

Results flagged for a closer look

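Of 24 groups of libraries examined gene by gene, 5 held 1 library far from the others by Dixon's criterion, where chance marks about 1 in 20 groups of continuous values. Chat in EpCAM replicate 5 was at 0.151 CPM, 1 read, against 2.36 to 3.09 CPM in the other 4 libraries, although its tuft and brush cell marker sum was the highest of that group at 23.8 CPM. The other 4 were genes with reads in a single library of a group, where all others at 0 meet the criterion by construction and that rate does not apply: Slc10a4 at 1.54 CPM (9 reads) in FSClow replicate 8 and at 0.560 CPM (3 reads) in FSChi replicate 4, Slc5a7 at 0.187 CPM (1 read) in FSChi replicate 4, and Bche at 3.06 CPM (13 reads) in FSChi replicate 1.

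The effect against EpCAM differed between FSChi and FSClow for 3 genes. EpCAM cancels in that difference, so these are the FSChi against FSClow calls given above and no further test. The effect was 4.08 higher on the log2 scale in FSChi for Slc44a4, which lay above EpCAM in FSChi and below it in FSClow. It was 3.75 higher for Ache, which was lower than EpCAM in both gates. For Chat, the gene behind the sort, it was -0.85, a call that ended in 7 of 33 alternatives.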

How the results depend on the processing

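Of 593 member values under alternatives, 566 kept their direction and their side of the threshold, 16 lost a call, 8 gained one and 3 reversed. The 3 reversals were Slc44a2 in FSChi against EpCAM, which passed no test: -0.60 and -1.24 on log2 TPM with pseudocounts of 1 and 0.1, and -0.06 with only the libraries that matched their own file. Of 1021 values of called pathway genes, 857 kept their call, 158 lost it and 6 reversed. Among these, limma on log2 TPM with a pseudocount of 0.1 turned Slc44a3 (-0.63), Pnpla6 (-0.22), Pcyt1b (-0.54) and Gpcpd1 (-0.14) in FSChi against EpCAM and Chrna10 between the gates (-0.32), and Pcyt1b stood at -0.00 with a pseudocount of 1. These TPM fits include the nearly empty FSChi replicate 3 file. The causes were not tested.

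Members called between the gates numbered 3, and 1 on log2 TPM with a pseudocount of 0.1. Leaving out 1 library gave 5 to 5 members called for FSClow against EpCAM, 3 to 5 for FSChi against EpCAM and 2 to 4 between the gates. Of 11 ratios, 7 passed, against 4 on RSEM counts, 4 with matching libraries only, 3 on RSEM counts without the nearly empty file (added after seeing the data) and 4 to 8 on leaving out 1 library, with 4 without FSChi replicate 2 or 4 or EpCAM replicate 1, 3, 4 or 5. The passing ratios were Slc44a4 to Slc44a2 in every comparison, and Slc44a1 to Slc44a2 in both gates against EpCAM. Ache to Bche passed in FSClow against EpCAM and between the gates. In FSClow, with 6 Ache and 0 Bche reads, that ratio was set mostly by the constant added to each count. Nothing is read from those Ache to Bche calls. Both Slc44a1 ratios did not pass on RSEM counts, and the count table held 0.202 of that gene's RSEM reads in matching libraries. Ratios with Bche or Slc5a7 rest on few reads.

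Replicate numbers did not pair the libraries: of 15 same-numbered pairs 3 correlated above 0.1 (r from -0.192 to 0.404), and 3 of 19 libraries correlated best with their own number. With the replicate block, 5, 4 and 2 members were called in the 3 comparisons, and Chat between the gates had an adjusted p of 0.166. Depth limits Slc5a7, Slc10a4 and Bche, and Ache in FSClow.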
